A study of Rattus norvegicus with 6 samples.

Results

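In rat pituitary organ cultures, 6 genes were followed as a measure of neural (posterior) lobe content. These were the genes for vasopressin (Avp), oxytocin (Oxt), the light, medium and heavy neurofilament subunits (Nefl, Nefm and Nefh) and myelin basic protein (Mbp). Which cells of the cultures their RNA came from was not tested. Every probe set whose array annotation gave only 1 of these symbols was taken, which gave 9 of 31042 probe sets and 6 of 14217 named genes. Avp, Oxt, Nefm and Nefh had 1 probe set each, Nefl had 2 and Mbp had 3. The groups were 3 samples given 10 nM GnRH, the hypothalamic peptide that acts on pituitary gonadotropes, and 3 control samples, with 1 array each. The comparison asked how transcripts differed between GnRH-treated and control pituitaries. The labels give neither strain, sex and age of the rats, nor treatment time, nor what the control cultures received. No label says whether the samples of a group came from separate cultures or animals, so the p-values measure the spread between these arrays, which for some of them may be technical. Sex-linked transcripts, given below, show that control 3 did not hold RNA of the same source as controls 1 and 2.

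The neural lobe holds the axon endings of hypothalamic magnocellular neurons, wrapped by pituicytes, the glia of the lobe. The cell bodies of these neurons lie in the supraoptic and paraventricular nuclei, outside the pituitary. Each neuron makes mainly vasopressin or oxytocin as a precursor together with its neurophysin, cuts it in the granule during axonal transport and releases the peptide into the blood. In the rat, Avp and Oxt mRNA has also been found in the axons of the neural lobe. Neurofilaments are the intermediate filaments of neurons and set the calibre of axons, and myelin basic protein packs the myelin sheath made by oligodendrocytes and Schwann cells. The anterior and intermediate lobes, which make up the rest of the organ, hold endocrine cells. In whole cultures of this kind, fewer cells or axons of a type and less RNA in each cannot be told apart.

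The upstream sequences of the hormone genes are shown because Avp and Oxt had the lowest fold changes among the members and were both lowest on the third GnRH array. Both genes lie on chromosome 3, with 0 annotated genes between them in the RefSeq table of the GRCr8 build. Promoter entries from RefSeq (GRCr8) matched Avp, Oxt and Mbp by symbol. Nefl, Nefm and Nefh were the other members. The 250 bases before each annotated start are given 5′ to 3′ on the strand of the gene, at chr3:138248523-138248772 on the minus strand for Avp and at chr3:138235504-138235753 on the plus strand for Oxt. Capitals mark the TATA-type ATAAA, the E-box CACGTG and the nuclear receptor half-site TGACC, each searched on both strands, with no overlap between the marked letters.
Avp: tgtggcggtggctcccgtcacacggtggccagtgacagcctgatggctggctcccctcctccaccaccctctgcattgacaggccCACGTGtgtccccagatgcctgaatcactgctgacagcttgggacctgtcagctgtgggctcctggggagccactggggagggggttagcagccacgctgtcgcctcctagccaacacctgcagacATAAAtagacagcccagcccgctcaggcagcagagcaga
Oxt: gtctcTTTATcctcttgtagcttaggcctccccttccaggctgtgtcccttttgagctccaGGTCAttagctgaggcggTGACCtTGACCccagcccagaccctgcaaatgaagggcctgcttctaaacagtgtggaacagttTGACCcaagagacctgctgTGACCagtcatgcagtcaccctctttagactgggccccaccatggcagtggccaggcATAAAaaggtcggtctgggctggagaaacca
ATAAA, the core of a TATA-type box, began 39 bases before the start in Avp and 31 bases before it in Oxt, with another in Oxt on the opposite strand. It was present on either strand in 39.3% of 33469 promoter windows of this length. CACGTG, an E-box of the G-box type, began 165 bases before the start of Avp, was not among these letters in Oxt and was present in 5.59% of the windows. TGACC, a half-site of nuclear receptors, was present 5 times in Oxt, of which 1 lay on the opposite strand, was not among these letters in Avp and was present in 35.4% of the windows. The shorter E-box pattern CANNTG, which includes CACGTG, was present in both sequences and in 65.5% of the windows. TGACG, a half-site of cAMP response elements, was present on the opposite strand of Avp, not among these letters in Oxt, and in 18.2% of the windows. These matches describe letters and are not sites of binding.

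The arrays had median intensities of 64.5 to 67.0 on the linear scale. Levels below are log2 values of these intensities, and differences are in log2 units. Control 3 stood apart from the other controls. Its Pearson correlation over all probe sets was 0.983 and 0.986 with controls 1 and 2, which had 0.994 with each other, and 0.988 to 0.991 with the GnRH arrays. On the brightest probe set of Xist, the RNA of the silenced X chromosome, the GnRH arrays had log2 values of 9.73, 9.16 and 9.49, control 3 had 9.77, and controls 1 and 2 had 3.91 and 3.66. The Y-linked translation factor gene Eif2s3y was the reverse, at 2.42, 2.29 and 2.06 on the GnRH arrays, 2.76 on control 3, and 6.48 and 6.56 on controls 1 and 2. By these transcripts controls 1 and 2 were male-like and the other 4 arrays female-like, whereas the labels give no sex. Sex and GnRH were therefore separated by control 3 alone, and in every fit without control 3 they cannot be told apart. Against control 3 alone, with no test, all 3 GnRH arrays were lower in Avp, Oxt and the brightest Mbp probe set. All 3 were higher in the brighter Nefl probe set, Nefm and Nefh. In the other Nefl probe set and the other Mbp probe sets, control 3 lay within the range of the GnRH arrays. Avp had 6.89 in control 3, beside 6.67, 6.76 and 6.03 on the GnRH arrays. The third GnRH array stood apart in Avp and Oxt and in markers of pituicytes and of the intermediate lobe, as described below. Anterior lobe hormone genes were bright on every array, as in Gh1, the growth hormone gene, which had 14.18, 14.09 and 14.17 with GnRH and 14.25, 14.22 and 14.20 in controls. All GnRH arrays lay below all controls in Gh1, with a difference of -0.080 (limma adjusted p = 0.729). The deposited table has no detection calls, so absence of a transcript could not be called.

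Vasopressin and oxytocin mRNA lay lower with GnRH, without passing the test. Avp, the precursor of the antidiuretic hormone, had log2 values of 6.67, 6.76 and 6.03 with GnRH and of 6.94, 7.34 and 6.89 in controls. All 3 GnRH arrays were below all 3 controls, and the third GnRH array was lower than any other. The means were 6.48 ± 0.40 with GnRH and 7.05 ± 0.25 in controls (SD, n = 3 each), a difference of -0.57 ± 0.19 (SE), or 0.674-fold (limma adjusted p = 0.264). Its 95% confidence interval ran from -0.98 to -0.16.

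Oxt, the precursor of the hormone of milk ejection and labour, had log2 values of 7.39, 7.58 and 6.86 with GnRH and of 7.51, 7.69 and 7.91 in controls. Here the groups overlapped, since the second GnRH array lay above control 1, while the third GnRH array was again the lowest. The means were 7.28 ± 0.37 with GnRH and 7.70 ± 0.20 in controls (SD, n = 3 each), a difference of -0.43 ± 0.17 (SE), or 0.743-fold (limma adjusted p = 0.347). The interval was -0.81 to -0.051.

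The neurofilament light chain lay on the other side. Nefl, whose product forms the core of the filament, had log2 values of 7.23, 7.56 and 7.0 with GnRH and of 6.85, 6.81 and 6.78 in controls on its brighter probe set (1370058_at). All 3 GnRH arrays were above all 3 controls, which differed little among themselves. The means were 7.26 ± 0.28 with GnRH and 6.81 ± 0.037 in controls (SD, n = 3 each), a difference of 0.45 ± 0.13 (SE), or 1.37-fold (limma adjusted p = 0.195). On the other Nefl probe set (1370059_at) the values were 5.86, 6.38 and 5.97 with GnRH and 5.68, 5.34 and 5.99 in controls. The difference was 0.40 ± 0.17, with limma adjusted p = 0.388, and the groups overlapped because control 3 lay above 2 of the GnRH arrays. Both probe sets were highest in the second GnRH array. Probe set 1370059_at was dim, with a mean below the median of all probe sets.

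The other subunits were close between the groups. Nefm, the medium chain, which carries a long phosphorylated tail, had log2 values of 6.31, 6.48 and 6.34 with GnRH and of 6.42, 6.42 and 6.01 in controls. Control 3 was the lowest array and the groups overlapped, with a difference of 0.094 ± 0.12 and an interval from -0.17 to 0.36 (limma adjusted p = 0.788). Without control 3 the difference was -0.042, so its sign rested on that array. Nefh, the heavy chain, had 6.67, 6.64 and 6.72 with GnRH and 6.60, 6.59 and 6.50 in controls. The groups did not overlap, but the difference was only 0.12 ± 0.084, with an interval from -0.068 to 0.30 (limma adjusted p = 0.602). Nefh was the most even member, with a spread within groups (residual SD) of 0.049 on the log2 scale that lay at percentile 4.44 of all probe sets.

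Mbp lay slightly lower with GnRH on each of its probe sets, and in none did the groups separate. The gene also gives rise to Golli transcripts, which are known outside myelinating cells, and no probe set was assigned to a transcript here. The brightest (1383479_at) had log2 values of 7.71, 7.61 and 7.72 with GnRH and of 7.93, 7.68 and 7.76 in controls, a difference of -0.11 ± 0.094 (limma adjusted p = 0.662). The second (1387341_a_at) had 4.59, 4.19 and 4.44 with GnRH and 4.74, 4.66 and 4.36 in controls, a difference of -0.18 ± 0.13 (limma adjusted p = 0.610). The third (1368810_a_at) had 4.41, 4.30 and 4.38 with GnRH and 4.76, 4.47 and 4.31 in controls, a difference of -0.15 ± 0.12 (limma adjusted p = 0.647). The last 2 were dim, with means below the median of all probe sets, and in both control 1 was the highest array.

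**Figure D1:**
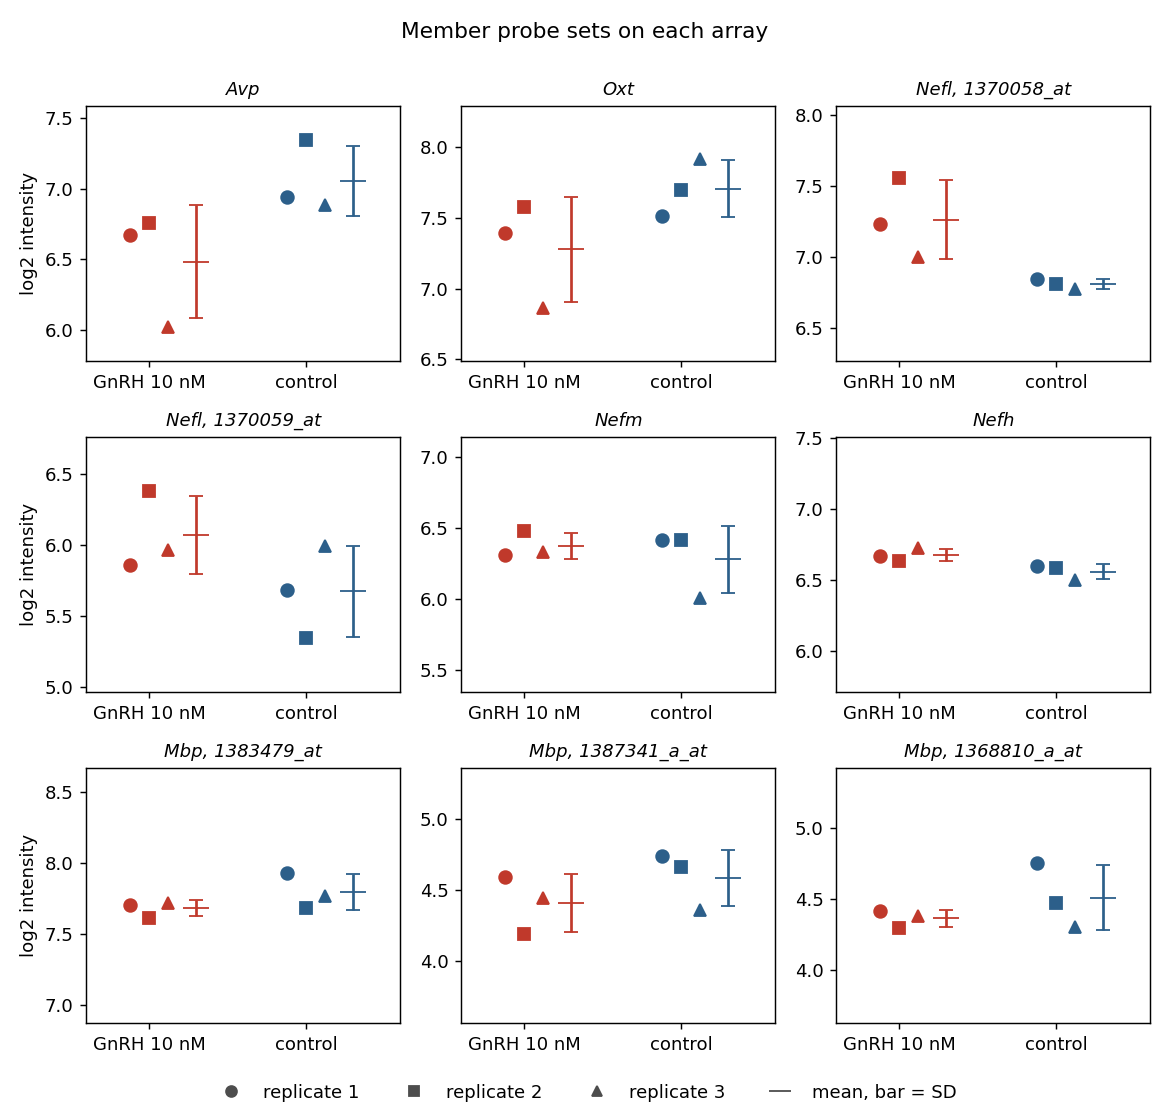
Log2 intensity (vertical axes, each spanning 1.8 units) of the 9 member probe sets on every array, with GnRH 10 nM in red on the left and control in blue on the right. Symbols mark the replicate number and the bars show the mean with its SD (n = 3). The third GnRH array (red triangle) is lowest in Avp at 6.03 and in Oxt at 6.86, but not in Nefh or Mbp.

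None of the 9 member probe sets passed the test, against 0.464% of all 31042 probe sets (limma with Benjamini-Hochberg adjustment over all probe sets, adjusted p under 0.05). At an unadjusted p under 0.05 there were 4 of 9, Avp, Oxt and both Nefl probe sets, against 12.3% of all probe sets. The groups did not overlap in 3 of 9, against 16.7%. Among these Avp had all GnRH arrays below the controls, as did 9.62% of all probe sets, and Nefh and the brighter Nefl probe set had all GnRH arrays above them, as did 7.06%. The median log2 fold change of the members was -0.11, with 4 above 0 and 5 below, beside -0.025 over all probe sets. The members thus did not share a sign: Avp, Oxt and Mbp had differences below 0 and the neurofilament subunits above 0, none past the test. The intervals of Nefm, Nefh and every Mbp probe set spanned 0. Those of Avp, Oxt and both Nefl probe sets did not, but these intervals are not adjusted over all probe sets. The sign is thus not settled for any member.

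**Figure D2:**
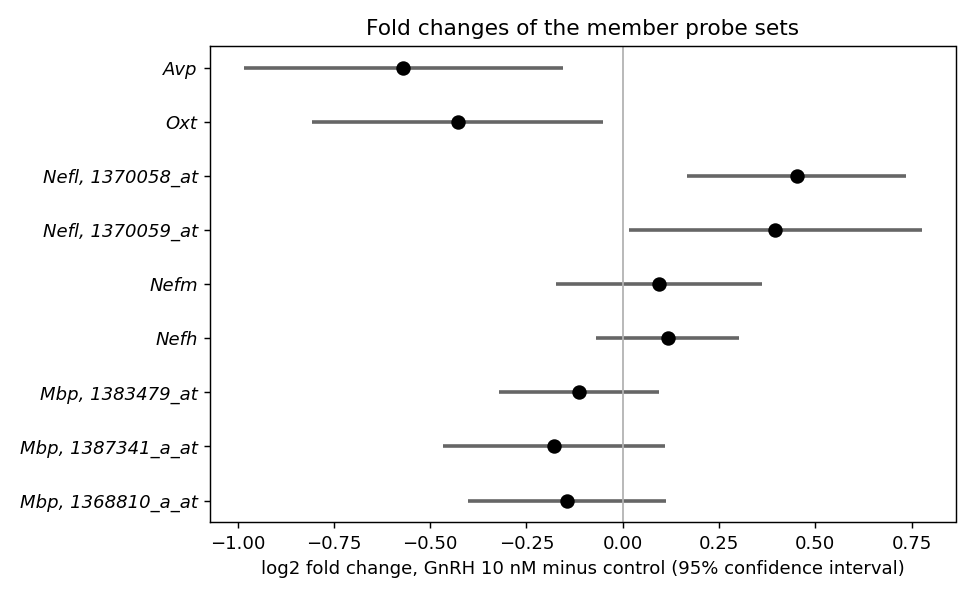
Log2 fold change of each member probe set, GnRH 10 nM minus control, with its unadjusted 95% confidence interval from limma (n = 3 arrays a group). Avp at -0.57 and Oxt at -0.43 lie left of 0, both Nefl probe sets at 0.45 and 0.40 lie right of it, and the intervals of Nefm, Nefh and Mbp span 0.

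Single arrays moved these values. Without the third GnRH array the difference was -0.34 for Avp (limma adjusted p = 0.533) and -0.22 for Oxt (limma adjusted p = 0.682), and 0.58 for the brighter Nefl probe set (limma adjusted p = 0.115). Without control 3, where 7.44% of all probe sets passed, 0 of 9 members did. In that fit, where sex and GnRH cannot be told apart, Avp had -0.65 (limma adjusted p = 0.0686) and the Nefl probe sets had 0.43 (limma adjusted p = 0.0810) and 0.56 (limma adjusted p = 0.0515). With array weights, which call 9.73% of all probe sets, Avp passed at -0.71 (limma adjusted p = 0.0214) and so did Nefl at 0.44 and 0.58 (limma adjusted p = 0.0290 and 0.0277). The weights were not examined, so how much control 3, which alone separates sex from GnRH, counted in that fit is not known. Nefm lay at -0.020 there and at -0.042 without control 3. Nefl was smaller in other fits: the brighter probe set had 0.31 without the second GnRH array (limma adjusted p = 0.576), and the other had 0.24 without that array (0.768) and 0.23 without control 2 (0.799). With both control 3 and the third GnRH array left out, where 4.22% of all probe sets passed, the brighter Nefl probe set passed at 0.56 (limma adjusted p = 0.0360) while Avp had -0.42 (0.111) and Oxt -0.12 (0.566) and did not pass.

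**Figure D3:**
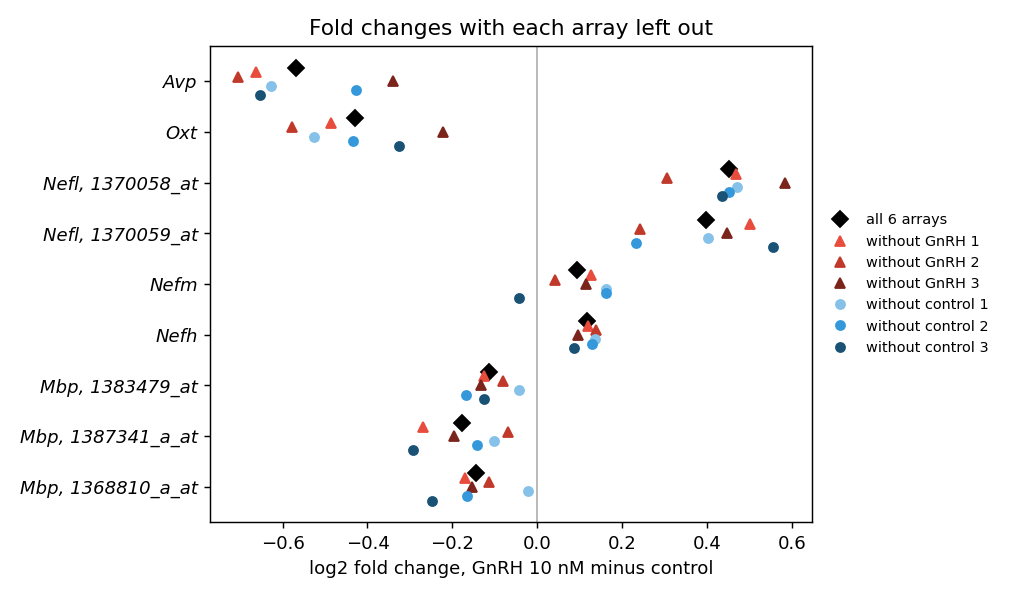
Log2 fold change of each member probe set, GnRH 10 nM minus control, with all 6 arrays (black diamonds) and with 1 array left out (red triangles for GnRH, blue circles for control). Avp runs from -0.71 to -0.34 and Oxt from -0.58 to -0.22, nearest to 0 without the third GnRH array, and only Nefm crosses 0.

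The third GnRH array was low in both hormone precursors at once. It lay below the mean of the other GnRH arrays by 0.69 in Avp and by 0.62 in Oxt on the log2 scale. In only 63 of 31042 probe sets was it further below them than in Avp. It was also 0.39 below them in the brighter Nefl probe set and 0.15 below in the other. Nefm (0.060 below), Nefh (0.068 above) and the Mbp probe sets (0.025 to 0.057 above) differed little in that array. Over the 6 arrays, which share their normalization, Avp and Oxt had a Pearson correlation of 0.84 and a Spearman correlation of 0.71 as a description, and 0.41 and 0.50 over the 5 arrays without the third GnRH array. Avp and the brighter Nefl probe set had -0.29 and -0.60 over the 6 arrays.

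Markers of the neural lobe's glia and of the intermediate lobe were low in the same array. Of 15 measured pituicyte and glial genes, 13 lay below the mean of the other GnRH arrays there, and of 7 intermediate lobe genes all 7 did, against 47.3% of all named genes. Neuronal and axonal genes did not share this, with 9 of 18 below. The counts were 10 of 16 for myelin genes and 4 of 8 for hormone processing and receptor genes. They were 10 of 16 for magnocellular co-expressed genes and 5 of 6 for other intermediate filament genes. For anterior lobe hormone, endothelial and macrophage genes they were 3 of 7, 2 of 6 and 2 of 7, and for red blood cell genes 2 of 2. Median deviations were -0.14 for pituicyte and glial genes, -0.17 for intermediate lobe genes and -0.48 for red blood cell genes. Over all named genes the median was 0.0094. Scn7a, a sodium channel gene found in pituicytes, had 7.84, 8.0 and 5.86 with GnRH and 8.19, 8.20 and 8.17 in controls. Pomc, the precursor of melanocyte-stimulating hormone in the intermediate lobe and of corticotropin in the anterior lobe, had 7.68, 7.67 and 6.09 with GnRH and 8.47, 7.96 and 7.47 in controls on its 1 listed probe set. Pcsk2, the protease that cuts this precursor and vasopressin's, had 6.17, 5.99 and 5.30 with GnRH and 7.14, 6.22 and 5.82 in controls. The third GnRH array was thus the lowest of all 6 in Avp, Oxt, Scn7a, Pomc and Pcsk2, whereas control 1 was the highest in Pomc and Pcsk2 but not in Avp or Oxt. The summed linear intensity of the pituicyte and glial genes ran from 2326 to 2678 with GnRH and from 2653 to 2817 in controls, and that of the intermediate lobe genes from 738 to 998 with GnRH and from 820 to 1245 in controls. The part of lobe content in the differences of Avp and Oxt was not tested.

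**Figure D4:**
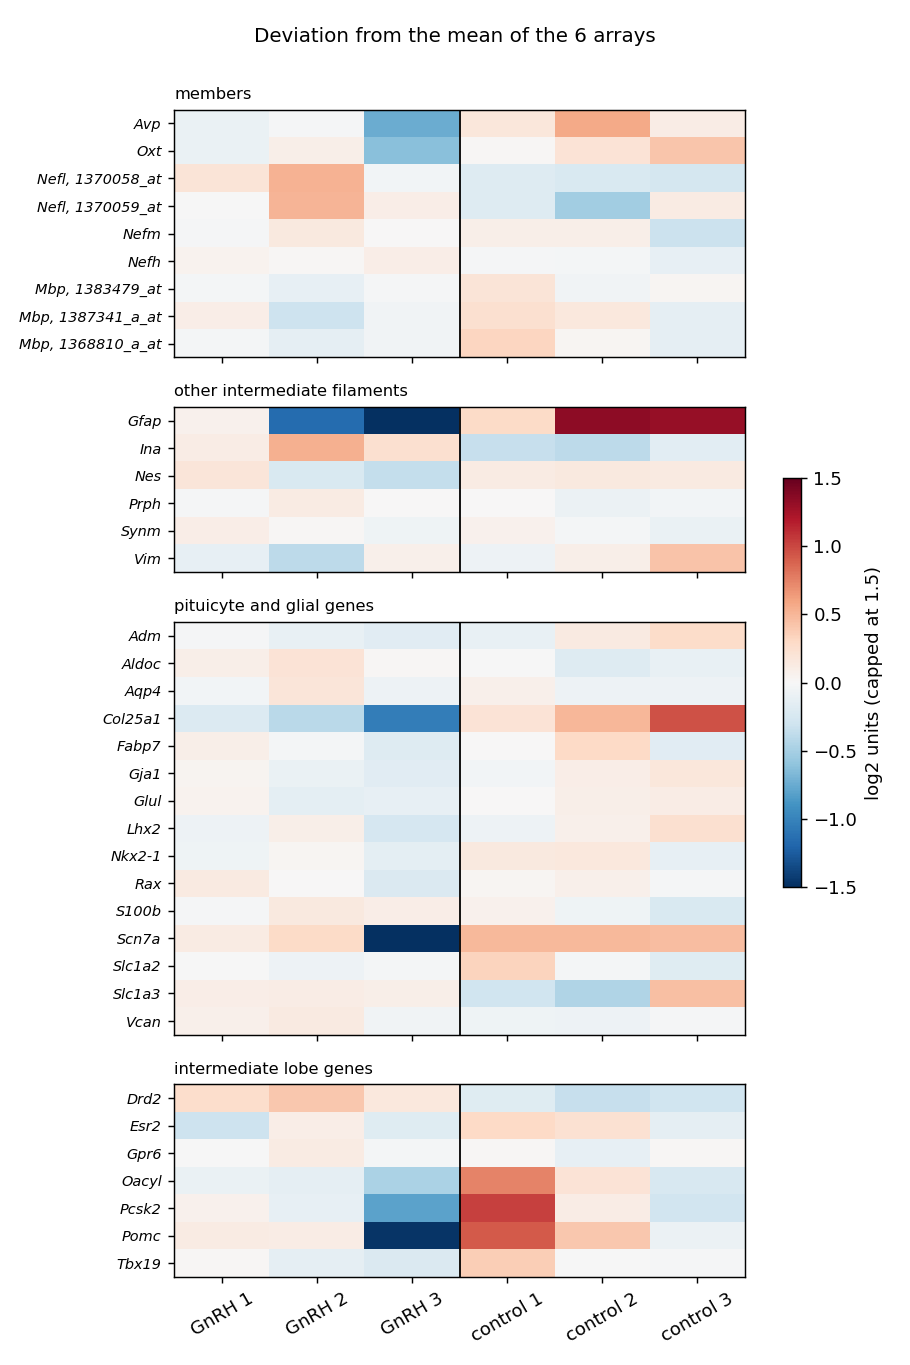
Deviation of each probe set from its mean over the 6 arrays, in log2 units, for the 9 members and for every measured gene of the lists of other intermediate filaments, pituicyte and glial genes and intermediate lobe genes (brightest probe set of each). Columns are arrays, GnRH left of the line and control right of it, with red above and blue below the mean. The third GnRH column is blue in Avp, Oxt, Gfap, Col25a1, Scn7a, Pcsk2 and Pomc.

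Among 6 other intermediate filament genes, Gfap lay lower and Ina higher with GnRH, and 0 of 6 passed the test (2 at an unadjusted p under 0.05). The shares over all 14217 named genes, each by its brightest probe set, were 0.605% past the limma test and 13.2% at an unadjusted p under 0.05. Gfap, the filament of astrocytes and pituicytes, had log2 values of 7.69, 6.47 and 5.76 with GnRH and of 7.92, 8.97 and 8.94 in controls. All GnRH arrays were below all controls and the spread was wide, with a difference of -1.97 ± 0.42 (SE), or 0.256-fold (limma adjusted p = 0.0835). Ina, internexin alpha, which joins neurofilament subunits in axons, had 7.38, 7.81 and 7.51 with GnRH and 6.93, 6.88 and 7.11 in controls, a difference of 0.59 ± 0.12 (limma adjusted p = 0.0705). The second GnRH array was the highest of all 6, as in Nefl, but the third was not the lowest treated one. Without control 3, where 8.45% of named genes passed, Gfap fell by 1.80 (limma adjusted p = 0.0367) and Ina rose by 0.66 (limma adjusted p = 0.0105). Nes (nestin) had a difference of -0.27 and Vim (vimentin) of -0.30 (limma adjusted p = 0.439 and 0.454). The median of the list was -0.11, beside -0.0089 over all named genes.

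Of 18 neuronal and axonal genes 0 passed the limma test and 2 had an unadjusted p under 0.05, with a median of -0.11. Smallest p-values belonged to the microtubule-associated genes Map1b (-0.24) and Mapt (-0.28), Scg2, a granin of secretory granules (0.23), and Kif5a, an axonal motor (-0.16), with limma adjusted p from 0.289 to 0.497. Without control 3, Mapt fell by 0.40 (limma adjusted p = 0.0422) and Thy1, a surface protein of neurons, by 0.38 (0.0361), but with all 6 arrays Thy1 had -0.10 (0.864) and its groups overlapped. Control 3 had 7.44 in Thy1, below the GnRH arrays at 7.91, 7.79 and 8.02. Of 16 measured myelin genes 0 passed and 2 had an unadjusted p under 0.05, with a median of -0.066. Pmp22, a myelin protein of peripheral nerve, had a difference of -0.31 (limma adjusted p = 0.207) on its brighter probe set and -0.61 (0.0776) on the other. Sox10, the transcription factor of Schwann cells and oligodendrocytes, had -0.26 (limma adjusted p = 0.328), Mal 0.27 (0.427) and Gal3st1 -0.16 (0.497). In Pmp22 and Sox10 all GnRH arrays lay below all controls, whereas the Mbp groups overlapped. Without control 3, Sox10 fell by 0.34 (limma adjusted p = 0.0347). The summed linear intensity of the myelin genes ran from 1006 to 1056 with GnRH and from 1089 to 1140 in controls. Bright genes weigh most in this sum, and Pmp22 was the brightest. Of the 16 genes, 5 had differences above 0 and 11 below.

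Pituicyte and glial genes had 0 of 15 past the limma test, 2 at an unadjusted p under 0.05 and a median of -0.091. Col25a1, a membrane collagen, had log2 values of 3.71, 3.50 and 2.86 with GnRH and of 4.11, 4.41 and 4.86 in controls, a difference of -1.10 ± 0.22 (limma adjusted p = 0.0689). Its probe set was dim, with every value below 6.04, the median of the probe set means. Scn7a, whose values are given above, had -0.95 ± 0.43 (limma adjusted p = 0.411), and without the third GnRH array -0.27. Aldoc had 0.21 (limma adjusted p = 0.396) and Adm, adrenomedullin, -0.20 (0.495). S100b, a glial calcium-binding protein, had 7.86, 8.03 and 7.98 with GnRH and 7.94, 7.82 and 7.66 in controls, so the levels of glial markers did not all lie on one side. Without control 3, Col25a1 fell by 0.90 (limma adjusted p = 0.0249) and Slc1a3, a glial glutamate transporter gene, rose by 0.47 (0.0113), but with all 6 arrays Slc1a3 had 0.20 (0.708) and its groups overlapped.

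Of 16 genes that magnocellular neurons express beside the hormones, 2 passed the limma test, both upward, against 0.605% of all named genes. At an unadjusted p under 0.05 there were 5, against 13.2%. The lists were chosen with earlier results of these data known, so their counts are not compared with each other. Creb3l1, a transcription factor known in the rat to act on the Avp promoter, had 8.67, 9.11 and 8.51 with GnRH and 7.37, 7.41 and 7.62 in controls and rose by 1.30 ± 0.15 (SE, limma adjusted p = 0.00799), while Avp had -0.57. Slc17a6, the vesicular glutamate transporter VGLUT2, had 7.85, 8.16 and 7.86 with GnRH and 7.24, 7.20 and 7.39 in controls and rose by 0.68 ± 0.11 (limma adjusted p = 0.0292). Both are also made by cells other than magnocellular neurons. Penk, the enkephalin precursor, had 9.76, 9.09 and 9.13 with GnRH and 10.19, 10.28 and 10.98 in controls, a difference of -1.16 ± 0.22 (limma adjusted p = 0.0554). Vgf, a granule protein, had 7.39, 7.91 and 6.19 with GnRH and 5.86, 5.98 and 5.85 in controls, a difference of 1.26 ± 0.33 (limma adjusted p = 0.152). Vgf was thus also lowest in the third GnRH array among the treated ones, but remained above every control. The list's median was -0.0083. Without control 3, 6 of 16 passed, 4 upward and 2 downward, against 8.45% of all named genes. In that fit sex and GnRH cannot be told apart. Without the third GnRH array 2 passed, both upward (Creb3l1 and Vgf), against 0.274% of all named genes. Slc17a6 had a limma adjusted p of 0.0650 there.

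Processing enzymes and receptors of the hormones had 0 of 8 past the limma test and 2 at an unadjusted p under 0.05, with a median of 0.019. Pam, which amidates both peptides, had 10.32, 10.24 and 10.56 with GnRH and 9.96, 9.97 and 9.84 in controls, a difference of 0.45 ± 0.10 (limma adjusted p = 0.108). Avpr1b, the vasopressin receptor of corticotropes, had 5.95, 6.04 and 5.99 with GnRH and 6.35, 6.25 and 6.14 in controls, a difference of -0.25 ± 0.090 (limma adjusted p = 0.301). Pcsk2 had -0.57 (limma adjusted p = 0.479) and Cpe, the carboxypeptidase that trims the peptides, 0.18 (0.507). Of the intermediate lobe genes 1 of 7 passed, with 2 at an unadjusted p under 0.05 and a median of -0.26. Drd2, the dopamine receptor of melanotropes and lactotropes, had 8.31, 8.46 and 8.21 with GnRH and 7.87, 7.70 and 7.75 in controls and rose by 0.56 ± 0.096 (limma adjusted p = 0.0399). Without the third GnRH array it did not pass (0.61, limma adjusted p = 0.0691). Oacyl had -0.47, Pomc -0.82 and Esr2, an estrogen receptor gene, -0.26, with limma adjusted p from 0.397 to 0.479. Without the third GnRH array Pomc had -0.29 (limma adjusted p = 0.769) and Pcsk2 -0.31 (0.818). Without control 3, Drd2 (limma adjusted p = 0.0113) still rose and Oacyl fell by 0.71 (0.0236), and in the processing list Pam rose by 0.41 (0.0422).

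Anterior lobe, vessel and blood genes gave no call with all 6 arrays. Without control 3, where sex and GnRH cannot be told apart, Prl and Lhb lay higher by 0.33 and 0.53 (limma adjusted p = 0.0374 and 0.0192). Tshb lay lower by 0.84 in that fit (limma adjusted p = 0.00450). Control 3 itself had 9.71 in Tshb, below the GnRH arrays at 9.95, 10.06 and 9.86. In Lhb it had 12.63, within their range of 12.38 to 12.71, and in Prl 14.15, just below their lowest of 14.16. Anterior lobe hormone genes had 0 of 7 past the limma test, 1 at an unadjusted p under 0.05 and a median of -0.080, with Prl, the prolactin gene, at 0.24 (limma adjusted p = 0.387), Lhb at 0.34 (0.425) and Tshb, the thyrotropin subunit, at -0.48 (0.483). Endothelial genes had 0 of 6 past the test, 1 at an unadjusted p under 0.05 and a median of 0.025, with Plvap, a protein of fenestrated vessels, at 0.40 (limma adjusted p = 0.267). Emcn, Tek and Esam had 0.091, -0.050 and 0.051. Macrophage and leukocyte genes had 0 of 7, 1 at an unadjusted p under 0.05 and a median of -0.086, with Csf1r at -0.21 (limma adjusted p = 0.377), Cd68 at -0.15, Aif1 at -0.16 and Cd74 at 0.22. The red blood cell genes Hbb and Alas2 had -0.12 and -0.091 and neither passed, with 0 at an unadjusted p under 0.05.

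Genes whose profile over the 6 arrays was most like that of a member were read from 489 named probe sets with a range of at least 1 log2 unit. Closest to Avp were Serpinf1, a secreted serpin (Pearson r = 0.99, Spearman rho = 0.94), and the extracellular matrix proteoglycan genes Lum (0.98, 1.0) and Ogn (0.95, 1.0). Lum had 6.23, 6.28 and 5.51 with GnRH and 6.49, 6.70 and 6.46 in controls, with the third GnRH array the lowest as in Avp. Closest to the brighter Nefl probe set were Lrrc73 (0.99, 0.94), Pcsk1n, the proSAAS gene of secretory granules (0.99, 0.83), and the transcription factor gene Cebpb (0.99, 0.94). Pcsk1n had 9.06, 9.96 and 8.14 with GnRH and 7.57, 7.83 and 7.58 in controls, with the second GnRH array highest and the third lowest among the treated ones, as in Nefl. Closest to the brightest Mbp probe set were Zfp451 (0.93, 0.60), U2af2 (0.91, 0.43) and Golga4 (0.89, 0.71), and 2 probe sets in all reached 0.9, against 6 for Avp and 45 for Nefl. With 6 arrays that share their normalization, these correlations describe the arrays only.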

How the data were processed

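RNA of 6 rat pituitary organ cultures was measured on 1-colour arrays. The deposited values are linear intensities, made with RMA by the authors per the submitters' processing notes, with software, version and filters not given in the sources used here. Log2 was taken of them without a pseudocount. All 31042 probe sets entered 1 linear model in limma 3.58.1 under R 4.3.3 (eBayes, 2-sided, no covariate, no filter), with Benjamini-Hochberg adjustment over all of them and a threshold of 0.05. A fold change is the mean log2 value of the GnRH arrays minus that of the controls. The fit was tested on simulated data. Samples were grouped by their titles. Names came from the array annotation, updated through gene identifiers: 20826 probe sets had 1 symbol, 436 several and 9780 none listed. Members and the 11 gene lists (115 different genes, 106 measured) were chosen with earlier results of these data known. Each list gene stands for its brightest probe set, and up to 4 genes with the smallest p-values were named, with S100b, Gh1, Thy1, Slc1a3 and a further Pmp22 probe set added after their values were seen. For likeness, the 3 named genes with the highest Pearson correlation over the 6 arrays were taken. Arrays have no counts, so their number limits precision. Alternatives were 3 scalings, a filter on dim probe sets, other variance models, array weights, a replicate block, a pseudocount of 16, a threshold of 0.10, gene means and each array left out. Leaving out control 3 and GnRH 3 together was chosen after seeing the data.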

Additional observations from a re-analysis of the deposited data

How the results depend on the processing

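Of 147 member values recomputed under the alternatives, 140 kept their sign and their side of the threshold, 4 passed it and 3 changed sign. The sign changes were all in Nefm, at -0.020 with array weights, -0.023 without both control 3 and GnRH 3, and -0.042 to 0.16 with each array left out. The count of member probe sets past the threshold was 0 in all fits but 2, at 3 with array weights and 1 without both control 3 and GnRH 3. Leaving out each array in turn gave 0. The cause was not tested. Over all alternatives the limma adjusted p ran from 0.0214 to 0.644 for Avp, 0.101 to 0.682 for Oxt and 0.0290 to 0.576 for the brighter Nefl probe set. Over all probe sets, the count past the threshold was 144 and became 90 with quantile normalization, 93 with cyclic loess, 74 with a pseudocount of 16, 3020 with array weights, 1311 without both arrays, 341 at a threshold of 0.10, and 20 to 2309 with each array left out, highest without control 3. By Xist and Eif2s3y, arrays numbered 1 and 2 were male-like in controls and female-like with GnRH, so these same-numbered arrays did not come from 1 animal. Whether the replicate numbers pair the samples in another way could not be decided. Same-numbered arrays had correlations of 0.16, -0.049 and 0.16 between their deviations, and the other pairs had -0.23 to 0.18. With 3 arrays a group, and control 3 apart from controls 1 and 2, these values cannot show it either way. With the replicate block 215 probe sets passed, 0 of them members, and Avp had a limma adjusted p of 0.0836. Within blocks 1 and 2 of that fit, sex and GnRH cannot be told apart. The filter on dim probe sets kept 6 of 9 members and left out the dimmer Nefl probe set and the dimmer Mbp probe sets. Signal over background is not known without detection calls, which limits dim probe sets most, such as these and that of Col25a1.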
